A study of Mus musculus with 15 samples.

Results

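The genes described here are 7 enzymes of cholesterol synthesis, Hmgcs1, Idi1, Fdft1, Sqle, Lss, Cyp51 and Dhcr7, and Srebf2, the gene of the transcription factor that drives them. These 8 genes were listed by name, but with earlier results of these data known. All 8 were found among the 54532 genes of the forebrain count table and the 32285 genes of the microglia matrices. The study deleted Atg7, an enzyme gene needed to build autophagosomes, in microglia. Conditional knockout mice (cKO) carried ATG7FF, the floxed Atg7 alleles, with the tamoxifen-inducible Cx3cr1CreER, and control mice carried ATG7FF without Cre. All animals were on the C57BL/6 strain, were given tamoxifen (1.5 mg) when 2 months old and were taken when 8 months old. In mice without amyloid transgenes, single-cell RNA-seq was made of microglia sorted as CD11b-high and CD45-low, as 1 library per genotype, the control one from a pool of 3 forebrains and the cKO one from a pool of 4. In mice that also carried the 5xFAD transgenes, which cause amyloid deposition, bulk RNA-seq was made of whole forebrain, with 6 control and 7 cKO libraries. No label states that the bulk libraries came from different mice, and the p-values therefore measure only how these samples spread. Since no control carried Cre, an effect of the Cre allele and an effect of the Atg7 deletion cannot be told apart.

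Cholesterol cannot cross the blood-brain barrier in useful amounts, so the brain makes its own, with oligodendrocytes and astrocytes as the main producers and myelin as the main store. Acetyl-CoA is built up through the mevalonate pathway into isoprenoids, a pair of farnesyl units is joined into squalene, and squalene is closed into lanosterol and trimmed to cholesterol. When sterol in the endoplasmic reticulum is low, the SREBP2 protein made from Srebf2 is carried by SCAP to the Golgi, cut by proteases and sent to the nucleus, where it raises the RNA of the synthesis enzymes and of Srebf2 itself. When sterol is high, INSIG proteins hold SREBP2 back, so the RNA of these enzymes is widely read as a gauge of a cell's sterol supply.

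SREBP2 binds sterol regulatory elements, short sequences near the starts of its target genes, often beside a CCAAT box, which binds the factor NF-Y. The promoters of the 3 genes that held a match to the letters TCACCNCA on either strand are printed because they show where such letters lie in the genes of an early enzyme, of a late enzyme and of the regulator itself. The printed regions of Hmgcs1 and Srebf2 hold CCAAT. That of Cyp51 does not, but a CCAAT lies past its end, at position -29 from the RefSeq start. They are reference sequence from RefSeq on GRCm38.p6, 5′ to 3′ on the gene's strand, and capitals mark matches to TCACCNCA and to CCAAT on either strand, where CCAAT on the other strand reads ATTGG. The regions are chr13:119690101-119690350 on the plus strand for Hmgcs1, chr5:4104747-4104947 on the minus strand for Cyp51 and chr15:82147019-82147180 on the plus strand for Srebf2, each ending before the more upstream of the RefSeq and GENCODE starts.
Hmgcs1: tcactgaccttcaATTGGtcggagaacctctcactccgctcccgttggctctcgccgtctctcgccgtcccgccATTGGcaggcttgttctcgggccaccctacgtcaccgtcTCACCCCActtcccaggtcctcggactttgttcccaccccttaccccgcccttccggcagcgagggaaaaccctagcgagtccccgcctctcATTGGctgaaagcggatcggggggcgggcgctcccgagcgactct
Cyp51: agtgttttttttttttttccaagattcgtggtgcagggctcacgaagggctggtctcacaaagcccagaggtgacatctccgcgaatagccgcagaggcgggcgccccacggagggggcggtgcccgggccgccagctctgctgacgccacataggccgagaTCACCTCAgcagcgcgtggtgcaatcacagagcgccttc
Srebf2: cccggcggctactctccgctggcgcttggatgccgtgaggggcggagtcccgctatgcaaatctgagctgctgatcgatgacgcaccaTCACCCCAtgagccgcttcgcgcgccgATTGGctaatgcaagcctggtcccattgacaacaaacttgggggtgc
The match began at position -137 from the RefSeq start in Hmgcs1, at -88 in Cyp51 and at -162 in Srebf2. Of the 8 genes, 6 had a promoter window of 300 bases (250 before and 50 after the start), and 3 of these 6 held TCACCNCA in at least 1 window, beside 5.08% of all 27025 genes with a window. CCAAT was in at least 1 window of all 6, beside 41.1% of all genes. Counted by window, the shares of all 32851 windows were 4.42% and 37.4%. Among the 14 other enzymes of the route, 11 had a window, of which 1 (Hsd17b7) held TCACCNCA and 10 held CCAAT. The TCACCNCA and CCAAT letters do not overlap each other in the printed regions. The motif letters were chosen after these promoters had been read, and a match is a description of the letters, not evidence of binding.

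In the 5xFAD forebrain, none of the 8 genes passed the test for a difference in RNA between cKO and control libraries. At an adjusted p under 0.05 in edgeR's quasi-likelihood test, 0 of 8 rose and 0 of 8 fell, beside 0.33% of all 16956 genes tested (0.0531% rose and 0.277% fell). At an unadjusted p under 0.05 the count was also 0 of 8 in edgeR, limma-voom and DESeq2, beside 7.71% of all genes in edgeR. The log2 change, cKO minus control, was above 0 in 4 genes and below 0 in 4, with a median of 0.00, the same as over all genes tested. None of the 8 had all cKO libraries above all controls (0.13% of all genes did) or all below (0.313% did). The design could resolve modest changes in the tissue as a whole: the 95% intervals of the 8 log2 changes held no change larger than 1.18-fold in either direction, and standard errors (SE) ran from 0.04 to 0.09. These bounds do not hold for microglia alone, whose share of this RNA was not measured.

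Levels are given as CPM, counts scaled to the library total. Hmgcs1 (ENSMUSG00000093930, chromosome 13, 119690379 to 119708260, plus strand) encodes the cytosolic synthase that condenses acetyl units at the start of the mevalonate pathway. Its lowest, median and highest values were 234, 271 and 294 CPM in the 6 control libraries and 231, 248 and 265 CPM in the 7 cKO libraries. The cKO values lay within or just under the control range, and 4 of 6 controls stood above every cKO library. The log2 change was -0.10 (SE 0.05) with an edgeR adjusted p of 0.671, and the exact permutation test over libraries, two-sided, gave p = 0.112, where the smallest this design allows is 0.00117. It was the lowest p of the 8 genes by either test.

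Idi1 (ENSMUSG00000058258, chromosome 13, 8885501 to 8892451, plus strand) encodes the isomerase that balances the pair of building blocks of isoprenoids. It ran from 25.8 through a median of 32.8 to 38.6 CPM in controls and from 26.9 through 31.7 to 36.4 CPM in cKO libraries. The cKO range lay inside the control range, and the log2 change was -0.06 (SE 0.09, edgeR adjusted p 0.878).

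Fdft1 (ENSMUSG00000021273, chromosome 14, 63145150 to 63179578, minus strand) encodes squalene synthase, which commits farnesyl units to sterols. It ran from 101 through a median of 112 to 116 CPM in controls and from 102 through 112 to 120 CPM in cKO libraries. The groups covered almost the same range, with a log2 change of 0.01 (SE 0.05, edgeR adjusted p 0.978). Sqle (ENSMUSG00000022351, chromosome 15, 59315077 to 59331192, plus strand) encodes squalene epoxidase, the oxygen-dependent and closely regulated step before ring closure. It ran from 85.3 through a median of 94.7 to 102 CPM in controls and from 84.0 through 96.2 to 102 CPM in cKO libraries. The groups overlapped over nearly their whole range, with a log2 change of 0.02 (SE 0.05, edgeR adjusted p 0.937).

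Lss (ENSMUSG00000033105, chromosome 10, 76531588 to 76557138, plus strand) encodes lanosterol synthase, which closes the sterol rings. It ran from 36.4 through a median of 38.4 to 47.8 CPM in controls and from 38.2 through 42.7 to 46.1 CPM in cKO libraries. In controls 2 libraries stood apart above the other 4, and the cKO libraries filled the range between, with a log2 change of 0.02 (SE 0.07, edgeR adjusted p 0.947). Cyp51 (ENSMUSG00000001467, chromosome 5, 4081145 to 4104746, minus strand) encodes the demethylase that acts on lanosterol. It ran from 80.8 through a median of 86.9 to 96.7 CPM in controls and from 74.6 through 87.5 to 100.5 CPM in cKO libraries. The control range lay inside the cKO range, and the log2 change was -0.03 (SE 0.06, edgeR adjusted p 0.929).

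Dhcr7 (ENSMUSG00000058454, chromosome 7, 143823145 to 143848410, plus strand) encodes the last reductase of one arm of the route. It ran from 31.9 through a median of 36.2 to 41.6 CPM in controls and from 36.4 through 37.9 to 41.0 CPM in cKO libraries. The cKO range lay inside the control range, near its upper end, with the largest positive log2 change of the 8 genes, 0.08 (SE 0.06, edgeR adjusted p 0.751). Srebf2 (ENSMUSG00000022463, chromosome 15, 82147181 to 82205379, plus strand) encodes the regulator. It ran from 296 through a median of 316 to 321 CPM in controls and from 288 through 314 to 325 CPM in cKO libraries. It had the smallest change of the 8 genes, with a log2 change of -0.00 (SE 0.04, edgeR adjusted p 0.988) and coefficients of variation of 3.10% in controls and 4.08% in cKO libraries.

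**Figure D1:**
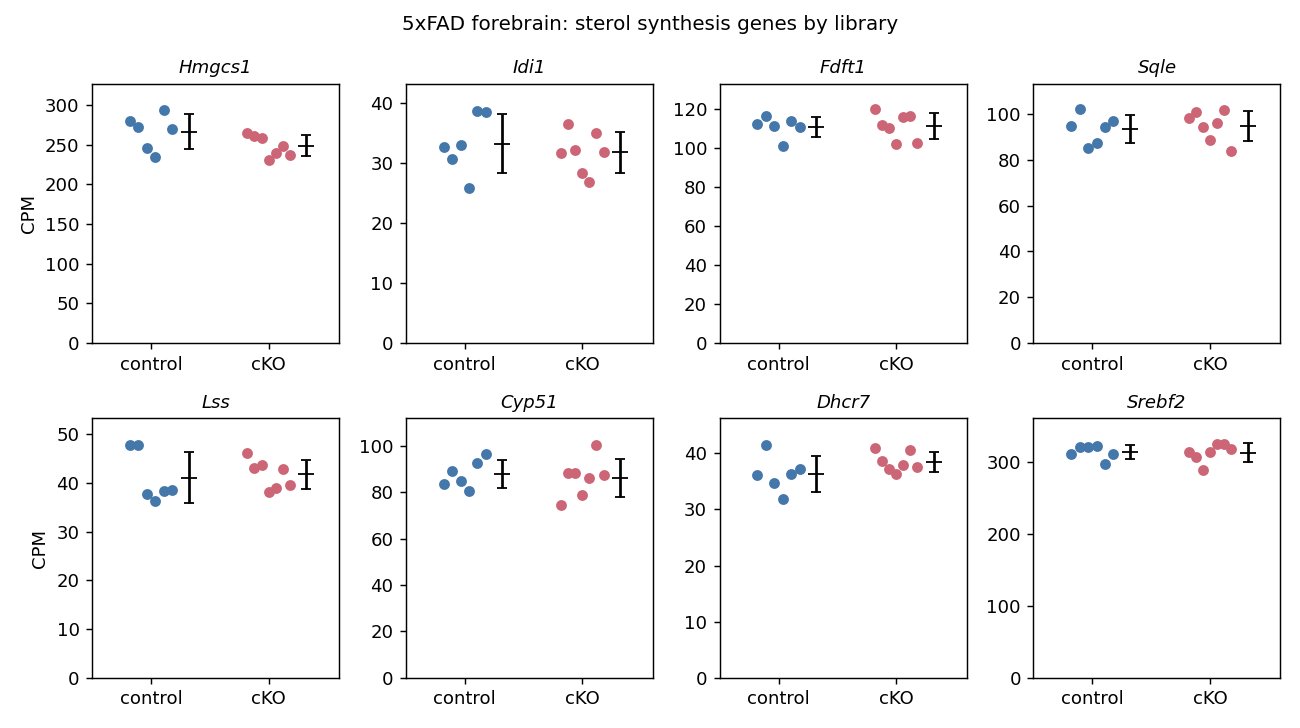
RNA level in CPM (linear axis from 0) of the 8 genes in each 5xFAD forebrain library, 6 control (blue) and 7 cKO (red), with the mean and SD beside each group. In every panel the groups overlap, and Lss shows 2 control libraries at 47.8 CPM above the others.

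Whether reads were counted by strand is not given in the sources used here, and reads from partners on the other strand cannot be told apart. Exons of Fdft1 share 774 bases with the lysosomal protease gene Ctsb, those of Cyp51 share 166 bases with Akap9, and Hmgcs1, Idi1 and Lss share 557, 323 and 381 bases with unnamed or non-coding transcripts, all on the opposite strand.

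Per kilobase of exon, over the 13 libraries, the order from high to low was Hmgcs1 at 55.9 ± 4.21 CPM per kb (SD, n = 13), Srebf2, Fdft1, Cyp51, Sqle, Idi1, Dhcr7 and Lss at 3.84 ± 0.37 CPM per kb (SD, n = 13). Srebf2 stood at 43.6 ± 1.53, Fdft1 at 26.2 ± 1.40 and Cyp51 at 19.7 ± 1.59 CPM per kb (SD, n = 13). Sqle stood at 17.0 ± 1.11, Idi1 at 9.24 ± 1.15 and Dhcr7 at 6.44 ± 0.45 CPM per kb (SD, n = 13). Every gene's lowest library exceeded the highest of the gene below it, except Cyp51, whose range overlapped that of Sqle. Length here is all annotated exon sequence of a gene, so genes with long minor isoforms read lower on this scale.

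The rest of the sterol route also held no gene that passed the test. Among 66 other genes in 6 lists, 0 rose and 0 fell in edgeR, and 5 had an unadjusted p under 0.05, which is 7.58% of the lists beside 7.71% of all genes. With limma-voom 4 and with DESeq2 5 had such a p, and neither called any. Of the 14 other synthesis enzymes 12 had a log2 change above 0 and 2 below, with a median of 0.04, beside 0.00 over all genes tested. The largest values in this list were those of Fdps, the farnesyl diphosphate synthase gene, at 0.37 (SE 0.23, edgeR adjusted p 0.712), and of the kinase gene Pmvk, at 0.27 (SE 0.13, edgeR adjusted p 0.645). Fdps was counted at only 1.16 ± 0.44 CPM in controls (SD, n = 6) and 1.49 ± 0.16 CPM in cKO libraries (SD, n = 7), and it shares 1124 exonic bases with the gene model Gm43738 on the same strand, so its count is uncertain.

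**Figure D2:**
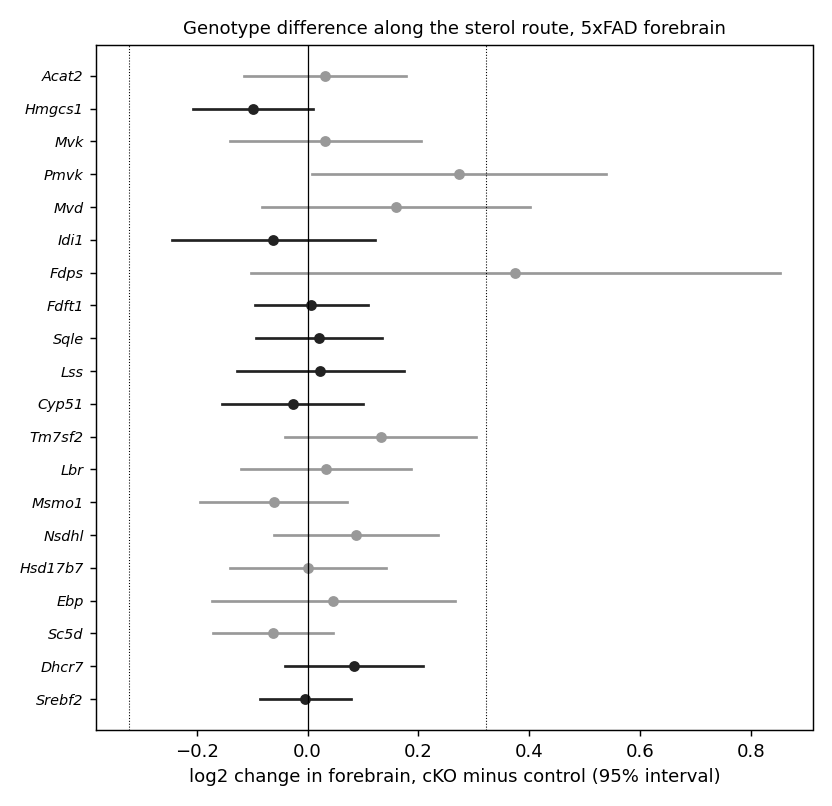
Log2 change of forebrain RNA, cKO minus control, with its 95% interval for enzymes of the route in order and Srebf2 (black, the 8 genes described; grey, other enzymes; dotted lines, an increase of 25% and the decrease of equal log size). All 8 black intervals include 0 and stay inside the dotted lines, while Pmvk, Mvd and Fdps have wider intervals that pass the upper line.

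No gene that senses, takes up or exports sterol passed the test either. Of the 9 genes for SREBP processing, 4 were above 0 and 5 below, with a median of -0.01 and Insig1, which retains SREBP2 in the endoplasmic reticulum, at 0.10 (SE 0.07, edgeR adjusted p 0.741). The lowest p of all 66 genes was that of Lrp1, the gene of a large receptor for lipoproteins and other ligands, at 392 to 453 CPM in controls and 291 to 412 CPM in cKO libraries, with a log2 change of -0.23 (SE 0.06, edgeR adjusted p 0.211). With offsets for GC content and length its adjusted p was 0.0417, and without cKO library 1 it was 0.0484. Cyp46a1, the neuronal hydroxylase that clears brain cholesterol, had a log2 change of 0.09 (SE 0.05, edgeR adjusted p 0.679), Abca1, a sterol exporter gene, one of -0.11 (SE 0.07, edgeR adjusted p 0.726), and the lipoprotein gene Apoe one of 0.04 (SE 0.11, edgeR adjusted p 0.934). In the lists of efflux, fatty acid synthesis and non-sterol isoprenoid genes the medians were 0.03, -0.04 and 0.02.

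In the same libraries 14 of 18 microglia marker genes fell at an adjusted p under 0.05 in edgeR, beside 0.277% of all genes tested. The 18 include Cx3cr1, whose own change is given below. Their median log2 change was -0.65, and their summed level was 749 to 903 CPM in controls and 493 to 525 CPM in cKO libraries. In bulk tissue, fewer cells of a type and less RNA per cell cannot be told apart. No marker of the main sterol-producing cells passed the adjusted test, though most lay below 0. Of 8 oligodendrocyte markers 0 were called in edgeR and 7 had a log2 change below 0. An unadjusted p under 0.05 was found for 3 of them, beside 7.71% of all genes. Their median was -0.09, and their summed level was 5389 to 5733 CPM in controls and 4782 to 5529 CPM in cKO libraries. Of 8 astrocyte markers 0 were called, 6 were below 0 and 1 had such a p (median -0.06). The part of these cell types in the values of the sterol genes was not tested. Atg7 itself, counted over the whole gene, stood at 24.3 ± 2.09 CPM in controls (SD, n = 6) and 24.3 ± 1.32 CPM in cKO libraries (SD, n = 7), while Cx3cr1, the gene that drives the Cre, fell by 1.37 on the log2 scale (SE 0.07, edgeR adjusted p 5.03e-11).

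Some of the synthesis genes varied together from library to library within the genotypes. With log2 CPM centred within genotype, 20 of the 21 pairs among the 7 enzymes had a Pearson r above 0 over the 13 libraries, with a median r of 0.61. The same values were not computed for pairs of other genes. Whether such covariation is particular to these genes was therefore not tested. Of the 28 pairs among all 8 genes, Srebf2 included, 3 passed a Benjamini-Hochberg adjusted permutation p of 0.05, all among Sqle, Fdft1 and Dhcr7. Sqle and Fdft1 had r = 0.77 and Spearman's rho = 0.72 (permutation p = 0.00374 for r and 0.0103 for rho, adjusted 0.0349 and 0.0720), and r = 0.83 without the 2 libraries farthest from the median of Sqle. Sqle and Dhcr7 had r = 0.76 and rho = 0.87 (permutation p = 0.00247 and 0.00061, adjusted 0.0346 and 0.0171), and r = 0.89 without the 2 farthest. Fdft1 and Dhcr7 had r = 0.77 and rho = 0.83 (permutation p = 0.00184 and 0.00138, adjusted 0.0346 and 0.0193), and r = 0.59 without the 2 farthest. Each of these 3 pairs was positive within the controls (r from 0.66 to 0.88) and within the cKO libraries (r from 0.69 to 0.85). By rho, the pair of Idi1 and Cyp51 also passed (rho = 0.77, permutation p = 0.00391, adjusted 0.0365), while its r of 0.61 did not (permutation p = 0.0252, adjusted 0.0770). These permutations take no account of the library numbers that both genotypes share. Over the 6 differences between same-numbered libraries, 14 of the 21 enzyme pairs had an r above 0, with a median r of 0.27, and none of the 28 pairs passed (lowest adjusted exact permutation p 0.233).

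Srebf2 had 1 of its 7 pairs with an r above 0, and its lowest r was with Hmgcs1 (r = -0.58, rho = -0.65, permutation p = 0.0302 and 0.0213, adjusted 0.0770 and 0.0853). In the mean of the 8 standardised values, control library 4 (-1.27) and cKO library 4 (-0.92) were lowest, and cKO library 6 (0.87) and control library 2 (0.84) were highest. The 2 lowest libraries had total counts of 22238824 and 16800592 and mitochondrial shares of 3.78% and 4.00%, and the 2 highest had 20012773 and 18011591 and shares of 3.79% and 4.24%. Over the 13 libraries this mean was compared with 7 other measures: depth, mitochondrial share and the markers of 5 brain cell types. None passed adjustment, with the largest r for endothelium markers (r = -0.52, rho = -0.57, permutation p = 0.0755 and 0.0602, adjusted 0.528 for r, and r = -0.51 without the 2 farthest). For astrocyte markers r was -0.42 (rho = -0.46, permutation p = 0.162 and 0.133, adjusted 0.566 for r, and r = -0.38 without the 2 farthest). For oligodendrocyte markers r was -0.23 (rho = -0.15, permutation p = 0.427 and 0.659, adjusted 0.747 for r, and r = -0.02 without the 2 farthest). For microglia markers r was -0.12 (rho = -0.41, permutation p = 0.722 and 0.182, adjusted 0.842 for r), and it was -0.58 without the 2 farthest libraries. These 7 measures were chosen after the pattern was seen.

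The 6 genes outside the list whose centred values were most like this mean, of 12100 with at least 5 CPM, were Edc4 (r = 0.88), Amy1, Adcy7, Slc52a2, Prr16 and Topbp1 (each r = 0.83), over the 13 libraries. They were picked for a high r among many genes, so these values describe the libraries and carry no test.

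**Figure D3:**
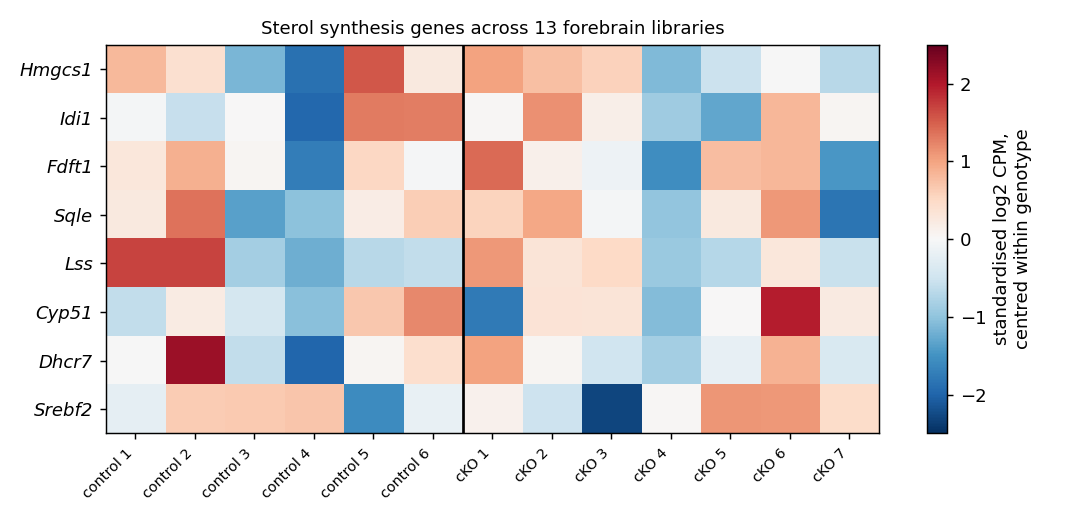
Standardised log2 CPM of the 8 genes (lines of the grid) in the 13 forebrain libraries (columns, controls left of the black line), centred within genotype, with red above and blue below the group mean. Control library 4 and cKO library 4 are blue in most enzymes, control library 2 and cKO library 6 are mostly red, and Srebf2 at the bottom is red in control library 4 and near 0 in cKO library 4.

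In sorted microglia the 8 genes stood at 24.4 CPM or less, and they did not differ between the libraries beyond counting error. Each genotype is 1 pooled library, so there is no replicate check and no test, and intervals cover counting error only. Values are CPM of UMIs, counted molecules, summed over microglia-like cells, 6225 control cells with 9087230 UMIs and 7499 cKO cells with 38169444 UMIs. The median control cell held 1391 UMIs and the median cKO cell 4834, and 22 barcodes occurred in both libraries (0.332% of control and 0.224% of cKO barcodes). All 18 microglia markers were detected, Cx3cr1 stood at 5348 CPM in control and 2817 CPM in cKO cells, and Atg7 at 15.8 and 17.3 CPM. The labels do not say which part of Atg7 is floxed, so whether the 3′ tag lies within it is not known here. Markers of oligodendrocytes summed to 116 and 117 CPM over 8 genes and those of astrocytes to 163 and 179 CPM, of which the astrocyte transporter gene Slc1a3 made up 161 and 174 CPM. Ttr, a choroid plexus gene that microglia should lack, stood at 9.46 and 14.5 CPM. The part of free RNA in sterol gene levels of this size was not tested.

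Among the 8 genes only Hmgcs1 reached 20 CPM, the level at which a fold was called, and 0 of that 1 gene passed 1.5-fold, beside 3.14% of 6744 genes at that level. Hmgcs1 stood at 22.7 CPM in control cells (206 UMIs) and 24.4 CPM in cKO cells (932 UMIs), which gives a cKO over control ratio of 1.08 (95% interval 0.925 to 1.26). Srebf2 stood at 16.4 and 14.3 CPM (149 and 547 UMIs), a ratio of 0.874 (0.728 to 1.05). Both intervals include 1, as do those of the other 6 genes. Cyp51 stood at 13.3 and 12.5 CPM, a ratio of 0.940 (0.769 to 1.16). Dhcr7 stood at 10.2 and 12.6 CPM, a ratio of 1.23 (0.984 to 1.55), and Lss at 4.29 and 5.79 CPM, a ratio of 1.35 (0.956 to 1.95). These were the highest ratios of the enzymes other than Sqle, and neither interval excludes 1. Fdft1 stood at 6.38 and 5.48 CPM, a ratio of 0.858 (0.639 to 1.17), and Idi1 at 4.51 and 4.72 CPM, a ratio of 1.05 (0.741 to 1.51). Sqle was almost absent from the counts, with 2 UMIs in control and 15 in cKO cells. Its ratio was 1.79 (0.415 to 16.1), so no difference was detectable at this depth.

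A 3′ tag is counted once per molecule, so these levels were set in order without a length correction. How fully the tags of each gene were recovered was not measured, so the order is one of counts. Hmgcs1 and Srebf2 were highest in both libraries, as they were per kilobase in the forebrain. Sqle was lowest, while per kilobase in the forebrain 3 of the genes stood below it. Summed over the 8 genes the level was 78.0 CPM in control and 80.2 CPM in cKO cells. Most control cells (5819) fell in a cluster led by the early response gene Fos and chaperone genes and most cKO cells (5499) in a cluster led by histone genes and Lyz2, so the libraries hardly share clusters. Within these 2 clusters the smaller library gave only 0 to 18 UMIs for any of the 8 genes, and log2 ratios that moved by over 1 were 2.66 for Sqle and -1.14 for Cyp51 in the first (1 and 4 UMIs in cKO cells) and 1.55 for Idi1 in the second (1 UMI in control cells). Srebf2 had a log2 ratio of 0.14 in the second, against -0.19 over all microglia-like cells. Hmgcs1 in the second of these clusters stood at 21.8 CPM in control cells (14 UMIs) and 23.7 CPM in cKO cells (694 UMIs). In a cluster of 1530 cKO cells led by Apoe it stood at 27.3 CPM (95% interval 23.6 to 31.4), an interval that includes its 24.4 CPM in all microglia-like cKO cells. An unnamed cluster of 1340 cKO cells and 3 control cells with few UMIs, led by nuclear transcripts such as Kcnq1ot1, was left out, and in its cKO cells Srebf2 stood at 27.9 CPM (20.6 to 37.1) and Cyp51 at 6.99 CPM (3.61 to 12.2).

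**Figure D4:**
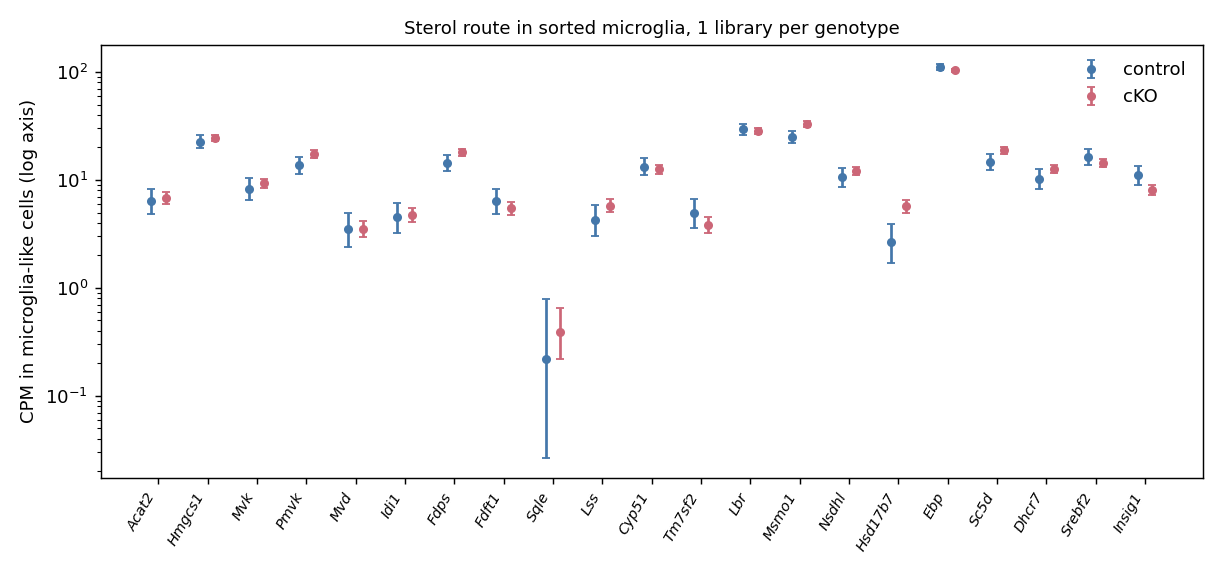
CPM of summed UMIs in microglia-like cells (log axis) of the control (blue) and the cKO library (red) for enzymes of the route in order, then Srebf2 and Insig1, with 95% counting intervals. The intervals of the 8 genes described overlap between libraries, Sqle lies below 1 CPM, and Ebp lies above 100 CPM.

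Around the 8 genes, the microglia libraries differed at a few points of sterol handling. Of the 14 other enzymes 3 reached 20 CPM and 0 passed 1.5-fold. Msmo1, which removes methyl groups from sterols, stood at 25.2 and 33.0 CPM, a ratio of 1.31 (1.14 to 1.51). Within the cluster of most cKO cells, which held only 290 control cells, its log2 ratio was -0.19. Ebp, a sterol isomerase gene, had the highest counts of the enzymes, at 110.8 and 104 CPM. Hsd17b7, picked out after its values were seen, stood at 2.64 and 5.71 CPM (24 and 218 UMIs), a ratio of 2.16 (1.42 to 3.45).

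Insig1, an SREBP target, stood at 11.1 and 8.12 CPM, a ratio of 0.731 (0.582 to 0.924). This lower value stands beside synthesis genes whose ratios lie on both sides of 1. Apoe, which also leads a cluster, stood at 173 and 537 CPM, a ratio of 3.10 (2.95 to 3.27), with log2 ratios of 0.09 and 0.38 within the clusters of most control and of most cKO cells. Lipa, the lysosomal lipase gene that frees cholesterol from its esters, stood at 108 and 201 CPM, a ratio of 1.86 (1.74 to 1.99). Gramd1b, a carrier of sterol from the plasma membrane, had a ratio of 1.52 (1.28 to 1.83) but a log2 ratio of -1.01 within the cluster of most control cells. Of the 12 efflux and oxysterol genes, 7 reached 20 CPM in at least 1 library, and all 7 had a ratio above 1 with an interval that excludes it. Cyp27a1 reached that level only in the cKO library (18.6 CPM in control and 23.3 CPM in cKO cells), so it entered this count through its higher cKO value. Of all genes at that level, 60.1% had a ratio above 1 and 28.1% an interval above 1. Abca1 was one of the 7 efflux and oxysterol genes, at 249 and 291 CPM (ratio 1.17, 1.12 to 1.22). Its log2 ratios were -0.46 and -0.03 within the clusters of most control and most cKO cells.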

How the data were processed

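The authors deposited whole-number counts with no normalization. Per the submitters' processing notes, bulk reads were aligned to mm10 with HISAT2 2.0.5 and counted per gene by featureCounts 1.5.0-p3. Per the file headers, Cell Ranger 6.1.0 made the UMI counts per cell. Bulk libraries held 16658707 to 22355512 counts. The 8 genes and the lists were chosen with earlier results of these data known. Genes kept by filterByExpr (16956) were scaled by TMM and tested in edgeR 4.0.16 (R 4.3.3) by its quasi-likelihood F-test with robust fitting, two-sided, with genotype as the only term and Benjamini-Hochberg adjustment over all of them at 0.05. DESeq2 1.42.0 and voom of limma 3.58.1 were alternatives. Positions and exon lengths are from GENCODE on GRCm38. Permutations of correlations (100000) were made within genotype. The test was tried on simulated counts with known changes. No library pair within a group agreed to within sampling noise (lowest chi-square per degree of freedom 2.75).

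A barcode needed 500 genes or more and no more than 10% of UMIs from mitochondrial genes. This left 6243 of 6633 control and 8874 of 9840 cKO barcodes, and no doublet caller was run. They were clustered with scanpy 1.11.5 (2000 variable genes, 30 components, 15 neighbours, Leiden resolution 0.5), and 6 of 8 clusters were called microglia-like. All 8 held at least 17 of the 18 microglia markers, so the 2 left unnamed were set aside on other grounds: 50 cells led by the choroid plexus gene Ttr, and 1343 cells with a median UMI count of 0.249 of their library's and no microglia marker among their leading genes. Ratios are of CPM of summed UMIs, with exact 95% intervals. Genes to name beside the 8 were set by a rule. In bulk it took those called and the 2 largest changes of each list. In microglia it took those past 1.5-fold with at least 20 CPM and the highest and lowest ratio of each list. In both it took 4 landmarks (Insig1, Cyp46a1, Apoe, Abca1), with Atg7 and Cx3cr1 as label checks. Not every gene that met the rule is described. Among those left out are Ch25h in bulk and Fads1 and Nus1 in microglia. Some genes that belong to the lists enter the counts and are not reported by name here.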

Additional observations from a re-analysis of the deposited data

Results flagged for a closer look

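The lowest control forebrain library for Fdft1, at 100.6 CPM, stood apart from the other 5 controls beyond Dixon's 95% limit, which chance passes in about 1 of 20 groups. Its gap was 0.634 of the range, against a limit of 0.625. The rule was applied to each of the 8 genes in both genotypes, so 1 pass among them can arise by chance. The same library, control 4, was the lowest of the 13 in the mean of the 8 genes.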

How the results depend on the processing

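None of the 8 genes was called in the forebrain under any alternative, and their lowest adjusted p was 0.463. Signs near 0 turned: Fdft1 was -0.021 with offsets for GC content and length and -0.0051 with these and the replicate block, Srebf2 was 0.013 with library totals, Apoe was -0.039 and -0.028 with these offsets without and with the block, and Mbtps2, an SREBP protease gene, was 0.014 with both. Leaving out 1 library at a time gave -0.00098 to 0.052 for Sqle, -0.019 to 0.030 for Fdft1, -0.010 to 0.075 for Lss, -0.064 to 0.0064 for Cyp51, -0.017 to 0.019 for Srebf2 and -0.054 to 0.096 for Apoe. Over all genes, 9 rose and 47 fell, against 23 risen with no count filter, 19 with DESeq2, and 1 risen and 21 fallen with the replicate block, and leaving out 1 library gave 3 to 23 and 30 to 50. The block changed no call of the 8 genes. No label says that equal numbers mark a pair, so the numbers entered only as this alternative. Over all genes, same-numbered libraries correlated from -0.49 to 0.37. Of the 6 controls, 3 matched best with their own number among the 7 cKO libraries. These values do not settle whether the numbers mark pairs. The mean of the 8 genes did move with the number (r = 0.86, rho = 0.83 over 6 pairs, exact permutation p = 0.0319 and 0.0583, chosen after seeing the data), and r was 0.16 without the 2 pairs farthest from the median, so the relation rests on those pairs. The pathway genes that fell numbered 1 (Lrp1) with GC and length offsets, and 0 to 1 when 1 library was left out. The log2 change over genes correlated with GC content (Spearman 0.36). In microglia the 3.14% of genes past 1.5-fold became 3.99% in cells with at least 1000 genes, 3.77% with cells thinned to 1000 UMIs, 15.9% and 12.7% within the clusters of most control and most cKO cells, and 12.1% at an increase of 25% or the decrease of equal log size. Among named genes whose interval over all microglia-like cells excludes 1, log2 ratios that changed sign within the first of these clusters were -1.01 for Gramd1b, -0.46 for Abca1, -0.079 for Mylip and -0.58 for Scd2, and within the second -0.19 for Msmo1 and -0.032 for Abca1. The first cluster held only 233 cKO cells and the second only 290 control cells, so these shares and signs carry large counting error. For Abca1 the 95% interval of the ratio was 0.596 to 0.873 in the first and 0.847 to 1.14 in the second. The cause of these differences was not tested. With 206 UMIs or fewer in the control library, depth limits all 8 genes in microglia.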
